A study of Homo sapiens with 4 samples.

Results

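ZNF genes encode zinc finger proteins, most of them of the C2H2 class. The genes described here are the protein-coding genes whose symbol is ZNF followed by a digit and whose mean expression over all 4 libraries reached 10 CPM (the count of a gene scaled to the total of its library). This rule kept 245 of the 515 ZNF coding genes in the table and left 270 under the threshold. The members were chosen by their count levels averaged over both groups and not by the difference between the groups. Their levels are therefore a description. The rule did not use the difference itself, but a gene near 10 CPM can pass it through the group where it is higher, as ZNF841 did. The members were also chosen with earlier results of these data known.

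The libraries were made from PC3, an established human prostate cancer cell line, with polyadenylated RNA sequenced as paired reads. One group, shNC, carried a control short hairpin RNA, and the other, sh812, is the group in which METTL3 was knocked down. Each group has 2 libraries, both groups are PC3 cells grown in the same medium, and one hairpin stands for the knockdown, so effects of METTL3 loss and effects of that hairpin's sequence cannot be told apart. The labels do not say whether the libraries of a group come from separate cultures, so p-values measure only the spread between these libraries, which may be technical.

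In a C2H2 zinc finger, 2 cysteines and 2 histidines hold a zinc ion and fold a short loop and helix that can read DNA. Fingers usually stand in a row and are joined by a conserved linker, and the order of fingers sets the DNA sequence that is bound. Many ZNF proteins also carry a KRAB domain, which recruits TRIM28 and the histone methyltransferase SETDB1 to silence transposable elements and genes. In humans many of these genes lie in clusters on chromosome 19. METTL3 is the catalytic subunit of the enzyme that writes N6-methyladenosine into messenger RNA, a mark that can alter the stability of a transcript.

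The sequences below show the repeat that gives the class its name, in the 4 members of chromosome 19 whose difference between the groups held the test both before and after a correction for transcript length. One of these 4, ZNF841, passed the threshold of 10 CPM only through shNC, the group where it was high. Each sequence is 84 coding bases, one finger with its linker, read on the sense strand from the GENCODE 29 models of GRCh38. Capitals mark the codons of the zinc-binding cysteines and histidines.
ZNF699: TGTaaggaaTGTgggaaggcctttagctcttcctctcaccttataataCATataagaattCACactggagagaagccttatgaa
ZNF841: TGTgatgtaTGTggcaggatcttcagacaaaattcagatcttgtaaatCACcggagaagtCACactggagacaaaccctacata
ZNF329: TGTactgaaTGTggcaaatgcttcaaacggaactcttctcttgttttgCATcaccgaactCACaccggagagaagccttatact
ZNF121: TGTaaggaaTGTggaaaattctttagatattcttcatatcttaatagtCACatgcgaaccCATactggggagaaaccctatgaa
The ZNF699 unit spans coding bases 1009 to 1092, that of ZNF841 bases 955 to 1038, that of ZNF329 bases 613 to 696 and that of ZNF121 bases 436 to 519. Units of exactly this layout and length occurred 7 times in ZNF699, 15 times in ZNF841, 8 times in ZNF329 and 6 times in ZNF121. The ZNF699 and ZNF121 units printed here were 72.6% identical base for base, while those of ZNF699 and ZNF841 were 61.9% identical. Within ZNF699 the median identity between its own units was 75%.

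A codon pattern for the C2H2 finger occurred at least once in 239 members and in 4.34% of all coding genes. The median member held 10 fingers by this pattern and the highest count was 33, in ZNF462. It was not found in ZNF720, ZNF365, ZNF703, ZNF330, ZNF185 and ZNF503. A codon pattern for the KRAB domain, which misses divergent copies, was found in 124 members and in 1.7% of all coding genes. Of those 124 genes, 80 lie on chromosome 19, which holds 109 members in all. That is 44.5% of the members, against 5.42% of other coding genes expressed at the same minimum.

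METTL3 itself was reported first as a check of the labels. Its level was 44.3 and 43.6 CPM in the 2 shNC libraries and 7.66 and 8.75 CPM in the 2 sh812 libraries, after scaling by the trimmed mean of M-values (TMM), the scale of every CPM given per library from here on. The mean of sh812 was 18.7% of that of shNC, with a log2 fold change of -2.42 (SE 0.11, edgeR quasi-likelihood adjusted p = 5.54e-14). METTL3 overlaps TOX4 on the opposite strand.

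Library totals ran from 31450648 to 37041330 counts. The epithelial keratin KRT8 was at 222 and 242 CPM in shNC and 252 and 254 CPM in sh812. The epithelial adhesion gene EPCAM was at 69.3 and 77.0 CPM in shNC and 98.5 and 101 CPM in sh812, a log2 fold change of 0.45 (edgeR adjusted p = 0.000128). Its part in the values of the ZNF genes was not tested. The prostate genes KLK2 and KLK3 had no counts, and leukocyte markers summed to at most 1.13 CPM.

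With all 4 libraries, 12 expressed ZNF genes changed. Of the 245 members, 2 were higher and 10 lower in sh812 at an edgeR adjusted p under 0.05, which is 4.90% of them. The percentage called was 10.8 over all 16802 genes tested and 16.2 over the 9334 coding genes with a mean of at least 10 CPM. In single directions it was 5.43 for higher and 5.42 for lower genes over all genes tested, and 8.43 and 7.79 over those coding genes. At an unadjusted p under 0.05, 12 members were higher and 33 lower, beside 24.8% of all genes tested and 33.5% of coding genes at the same minimum in either direction. Both sh812 libraries lay on one side of both shNC libraries for 113 members (46.1%), beside 53.6% of all genes tested and 61.2% of those coding genes.

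The count of calls depended on single libraries. Without shNC replicate 2, the share of members called was close to that of all genes tested in that fit. The share over coding genes of the same minimum was not taken there. Without shNC replicate 1, 8 members were called, 3.27% beside 10.4% of all genes. Without sh812 replicate 1 the count was 3, or 1.22% beside 3.28%, and without sh812 replicate 2 it was 1, or 0.408% beside 3.81%.

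No member reached a 2-fold difference, and 2 reached a log2 fold change of 0.5 in either direction. The fitted values ran from -0.67 in ZNF699 to 0.33 in ZNF587B, with quartiles at -0.14 and 0.07. The median size of the log2 fold change was 0.107 over the members and 0.120 over the other 9089 coding genes of that minimum. No test of the difference between these shares or medians was made.

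The share called was read at matched expression levels as well. Among genes of 10 to 20 CPM, 4 of 110 members were called (3.64%), beside 163 of 1598 other coding genes (10.2%). Between 20 and 50 CPM the counts were 4 of 104 (3.85%) and 392 of 3022 (13%). At 50 CPM or more they were 4 of 31 (12.9%) and 947 of 4469 (21.2%). The precision behind these shares was near the same: the median standard error was 0.124 for members and 0.122 for other genes in the lowest band, 0.094 and 0.091 in the middle band and 0.069 and 0.066 in the highest.

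**Figure D1:**
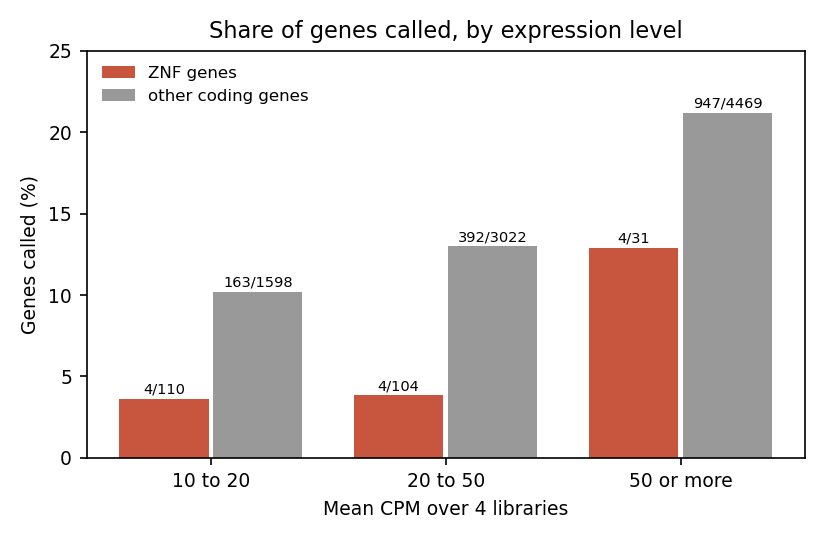
Percentage of genes called at an edgeR adjusted p under 0.05 (y axis) in 3 bands of mean CPM (x axis), for ZNF genes (red) and other coding genes (grey), with the counts above each bar. The red bar is below the grey bar in all 3 bands, at 3.64% against 10.2% in the lowest.

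The gene with the largest decrease was ZNF699, a KRAB zinc finger gene linked to an inherited syndrome of developmental delay and congenital anomalies. Its level was 21.4 and 20.4 CPM in shNC and 12.9 and 13.4 CPM in sh812. The groups were well apart, with raw counts of 812 and 644 against 454 and 478. The sh812 mean was 62.9% of the shNC mean, a log2 fold change of -0.67 (SE 0.11, edgeR adjusted p = 0.000282). It held the test in all 14 alternative analyses, with values from -0.71 to -0.63. ZNF699 (ENSG00000196110) occupies positions 9294275 to 9309838 of chromosome 19 in GRCh38, minus strand, and AC011451.1 overlaps it on the opposite strand.

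ZNF841, another KRAB gene of chromosome 19 with 20 fingers, gave the second largest decrease, with its shNC libraries far apart. The values were 14.2 and 9.61 CPM in shNC and 8.20 and 8.13 CPM in sh812. The first shNC library stood apart from the other one, so the shNC mean was 11.9 ± 3.21 (SD, n = 2). The fitted log2 fold change was -0.55 (SE 0.16, edgeR adjusted p = 0.0244). Without shNC replicate 1 it was -0.23 and no longer passed, and the call was also lost in DESeq2 and without either sh812 library. With a mean of 10.06 CPM, ZNF841 passed the threshold of 10 CPM only through shNC, the group where it was high, so its decrease is not independent of the rule. In 8 members the sh812 mean alone was under the threshold, ZNF841 being the one called, and in 1 member the shNC mean alone was. ZNF841 shares exonic bases with ZNF432 on the same strand.

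ZNF329, a chromosome 19 gene with 12 fingers, was at 29.7 and 29.8 CPM in shNC and 23.0 and 23.9 CPM in sh812. Its groups did not overlap, and the log2 fold change was -0.34 (SE 0.09, edgeR adjusted p = 0.0196). ZNF770, on chromosome 15, was at 90.9 and 83.4 CPM in shNC and at 71.5 CPM in both sh812 libraries. The decrease had a log2 fold change of -0.29 (SE 0.07, edgeR adjusted p = 0.0088). Both genes kept their call with the length trend removed, and both lost it without either sh812 library.

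ZNF558 is a KRAB gene known to repress the mitophagy gene SPATA18 in neural progenitors. It was at 24.1 and 19.6 CPM in shNC and 16.4 and 17.1 CPM in sh812 (log2 fold change -0.39, SE 0.11, edgeR adjusted p = 0.0275). ZNF678, with 14 fingers, was at 21.6 and 22.6 CPM in shNC and 16.8 and 17.1 CPM in sh812 (log2 fold change -0.38, edgeR adjusted p = 0.0195). ZNF791, a KRAB gene with 17 fingers, was at 53.7 and 49.2 CPM in shNC and 41.3 and 43.8 CPM in sh812 (log2 fold change -0.28, edgeR adjusted p = 0.0277). In each of these 3 genes the groups were apart, and none of them passed once the length trend was removed. Their log2 fold changes were then -0.30 for ZNF558 (edgeR adjusted p = 0.0774), -0.29 for ZNF678 (edgeR adjusted p = 0.0765) and -0.22 for ZNF791 (edgeR adjusted p = 0.0552), so the decreases were smaller but kept their direction. ZNF558 and ZNF791 also lost the call without shNC replicate 1, at -0.23 and -0.21. All 3 genes lost it without either sh812 library.

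The 2 members that rose were ZNF121 and ZNF706. ZNF121, whose protein binds MYC, was at 34.5 and 36.0 CPM in shNC and 40.9 and 47.0 CPM in sh812. Its log2 fold change was 0.32 (SE 0.09, edgeR adjusted p = 0.0195), and 0.21 without sh812 replicate 2, where it did not pass. ZNF706, which encodes a very small protein with a single finger, was at 106 and 107 CPM in shNC and 123 and 121 CPM in sh812. Its values were tight within each group, and the log2 fold change was 0.20 (SE 0.06, edgeR adjusted p = 0.0379). The call was lost when libraries were scaled by their totals alone and without either sh812 library.

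**Figure D2:**
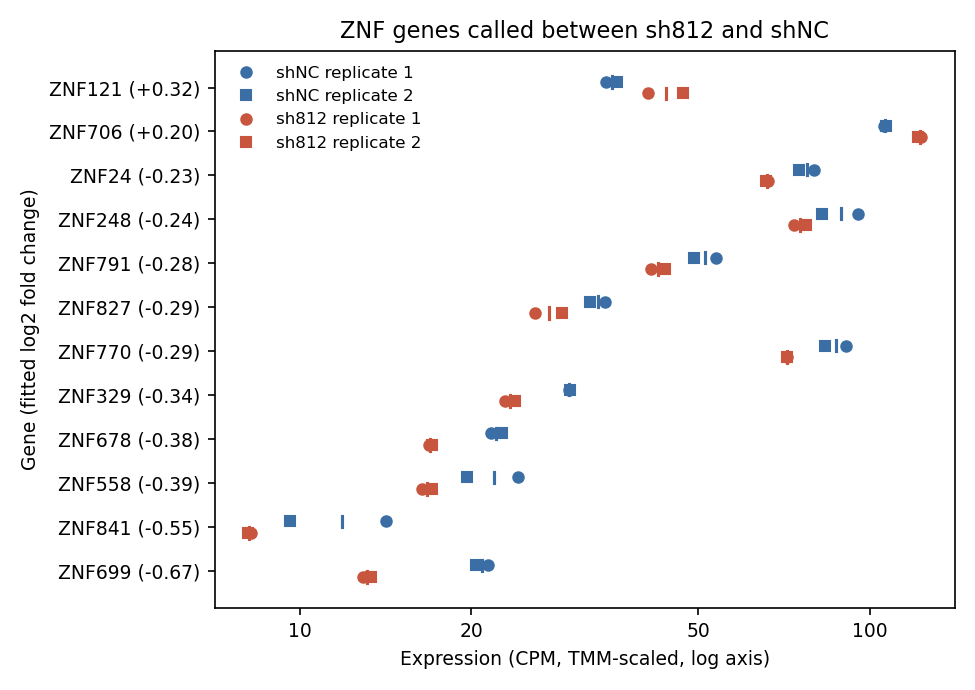
Expression in TMM-scaled CPM (x axis, log scale) of the 12 ZNF genes called, one per row with its fitted log2 fold change, in the 2 shNC libraries (blue) and the 2 sh812 libraries (red). Short vertical lines are group means. In each row the blue and red points do not overlap, and the 10 lower genes stand to the left in red.

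KRAB zinc finger genes that bind retroelements were given from a list of 15 genes, of which 10 are members. ZNF248 was the only one called, at 95.4 and 82.5 CPM in shNC and 73.7 and 77.2 CPM in sh812 (log2 fold change -0.24, SE 0.07, edgeR adjusted p = 0.0369). Its 2 shNC libraries were further apart than its 2 sh812 libraries, and without shNC replicate 1 its log2 fold change was -0.13 and did not pass. The call was also lost with the length trend removed (-0.17), in DESeq2 and without either sh812 library. Over the 10 genes the log2 fold changes had a median of -0.14, with 9 below 0, and of -0.07 with the length trend removed. The 1 call of this list stands beside 10.8% of all genes tested and 16.2% of coding genes of at least 10 CPM. A single call in so short a list, here or in the role lists below, is not read as a trait of the list. ZNF91, which silences SVA elements in human cells, was at 20.5 and 17.0 CPM in shNC and 16.9 and 18.2 CPM in sh812, so its groups overlapped. ZNF93, a repressor of LINE-1 elements, had 2 counts in the first shNC library and fell outside the test.

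Among chromatin adaptors, ZNF592, ZNF687 and ZNF532 work with ZMYND8. Of 14 adaptor symbols listed, 9 are members, with a median log2 fold change of -0.12, and of -0.04 with the length trend removed, when ZNF687 passed and ZNF827 did not. Over all genes tested 10.8% were called, and 16.2% over coding genes of at least 10 CPM. ZNF827, which brings the NuRD complex to telomeres kept by recombination, was the one adaptor called. It was at 34.4 and 32.3 CPM in shNC and 25.9 and 28.8 CPM in sh812 (log2 fold change -0.29, SE 0.09, edgeR adjusted p = 0.0487). Its call was lost in 8 of the 14 alternatives, among them each of the fits without shNC replicate 1 (-0.24) or without either sh812 library. ZNF687 was at 41.8 and 42.1 CPM in shNC and 46.9 and 48.6 CPM in sh812, with no overlap between the groups and a log2 fold change of 0.19 (edgeR adjusted p = 0.137). ZNF592 had -0.07 and ZNF532 had -0.12, neither called.

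The list of sequence-specific activators and GC-box binders held 15 genes and 14 members, with a median log2 fold change of -0.06 and 1 call. Beside that call stand 10.8% of all genes tested and 16.2% of coding genes of at least 10 CPM. With the length trend removed the median of the list was -0.03. ZNF24, a SCAN-domain protein that represses VEGF, was at 79.8 and 75.2 CPM in shNC and 66.4 and 65.9 CPM in sh812. Its groups were apart, with a log2 fold change of -0.23 (SE 0.07, edgeR adjusted p = 0.0352). It was -0.18 without shNC replicate 1 and -0.15 with the length trend removed, and passed in neither fit nor without either sh812 library. The related GC-box binders ZNF281 and ZNF148 had log2 fold changes of -0.20 (edgeR adjusted p = 0.0583) and -0.22 (edgeR adjusted p = 0.0809). ZNF143, an activator of many promoters, was at 19.6 and 20.05 CPM in shNC and 19.3 and 22.0 CPM in sh812, with overlapping groups. ZNF410, the activator of CHD4, had 9 counts in the first shNC library and was not tested.

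Genes linked to RNA, ribosomes and translation numbered 12 in the list and 10 among the members. ZNF706, given above, was the one called, and the median log2 fold change was 0.07, or 0.03 with the length trend removed. Called shares were 10.8% of all genes tested and 16.2% of coding genes of at least 10 CPM. ZNF598, the ubiquitin ligase that marks collided ribosomes, was at 69.9 and 68.2 CPM in shNC and 67.1 and 70.4 CPM in sh812. ZNF207, a kinetochore and splicing protein also named BuGZ, was at 112 and 109 CPM in shNC and 115 and 116 CPM in sh812. Neither was called, and the first of them overlapped between the groups. ZNF622, a maturation factor of the large ribosomal subunit, had a log2 fold change of 0.13 (edgeR adjusted p = 0.320).

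Of 11 genes listed for development or cancer, 6 are members and none was called by edgeR at an adjusted p under 0.05. Called were 10.8% of all genes tested and 16.2% of coding genes of at least 10 CPM. ZNF217, an oncogenic corepressor, was at 118 and 113 CPM in shNC and 104 CPM in both sh812 libraries. The sh812 values were lower than both shNC values, with a log2 fold change of -0.15 (edgeR adjusted p = 0.127). ZNF703, amplified in luminal breast cancer, had a log2 fold change of -0.09 (edgeR adjusted p = 0.512).

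The partners of KRAB proteins were read from a list of 32 genes, all of them tested. TRIM28, MTA1, NAP1L1 and CHD4 rose, SUV39H2 fell, and the others did not pass. That is 15.6% of the list, near the 16.2% called over coding genes of at least 10 CPM. On the same strand, exons of MTA1 overlap TEX22 and those of CHD4 overlap AC006064.6, where reads could be assigned to either gene. With the length trend removed 5 partners were higher and 1 lower, beside 9.92% called over all genes tested. With library size alone 1 was higher and 2 were lower, beside 11.2%. The partner calls also moved with single libraries and did not hold in every fit that left a library out. TRIM28, the corepressor that KRAB domains bind, had a mean of 595 CPM in shNC and 676 CPM in sh812 (log2 fold change 0.18, SE 0.06, edgeR adjusted p = 0.037). SUV39H2, which writes the heterochromatin mark H3K9me3, was at 17.2 and 20.8 CPM in shNC and 14.5 and 12.3 CPM in sh812 (log2 fold change -0.50, SE 0.12, edgeR adjusted p = 0.0102). SETDB1 had a log2 fold change of -0.07 (edgeR adjusted p = 0.754). ZNF274, the member that guides SETDB1 to the ends of ZNF genes, had -0.05.

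Members with the KRAB pattern gave 0 higher and 4 lower calls among 124 genes (3.23%). Those without it gave 2 higher and 6 lower among 121 (6.61%). The pattern misses divergent copies. ZNF248, given above among KRAB genes, did not match it and is counted among those without it. The sets are therefore split by the pattern and not by the domain itself. The percentage called was 10.8 over all genes tested and 16.2 over coding genes of at least 10 CPM. The median log2 fold change was -0.05 with the KRAB pattern and -0.01 without it. The 50 members with 15 or more fingers had a median of -0.07, and the 33 with 1 to 4 fingers one of -0.01. With the length trend removed the medians were -0.02 with the KRAB pattern and 0.01 without it, -0.02 for 15 or more fingers and 0.02 for 1 to 4. The calls were then 0 higher and 2 lower with the KRAB pattern (1.61%) and 4 higher and 2 lower without it (4.96%). Over all genes tested 9.92% were called in that fit. The sets differed in transcript length, with medians of 3660 bases with the KRAB pattern and 4079 bases without it, 4128 bases for 15 or more fingers and 3371 bases for 1 to 4. Their median GC content was 42.5% and 48.2% by the KRAB pattern, and 42.1% and 51.6% by finger number. The part of length and GC content in these medians was not tested beyond the length correction.

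On chromosome 19 the 109 members gave 1 higher and 5 lower calls (5.5%) with a median of -0.03. The 136 members on other chromosomes gave 1 and 5 (4.41%) with a median of -0.04. The 493 other expressed coding genes of chromosome 19 gave 68 higher and 18 lower calls (17.4%), with a median of 0.06. The percentage called was 10.8 over all genes tested and 16.2 over coding genes of at least 10 CPM. The 493 genes had shorter transcripts than the members there, with medians of 2359 against 3923 bases. Their median GC content was 61.0% against 43.1%. With the length trend removed they gave 57 higher and 25 lower calls with a median of 0.04. The members there then gave 2 higher and 3 lower with a median of -0.01. Of the 6 members called before on chromosome 19, ZNF558, ZNF699 and ZNF121 lie near each other on the short arm. They stand at ranks 4, 6 and 10 of the 109 in gene order. ZNF558 and ZNF699 were lower and ZNF121 higher. The members between them were not called, among them ZNF317 at 0.09 (edgeR adjusted p = 0.470) and ZNF559 at -0.10 (edgeR adjusted p = 0.606). Whether called genes lie closer together than other members was not tested.

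**Figure D3:**
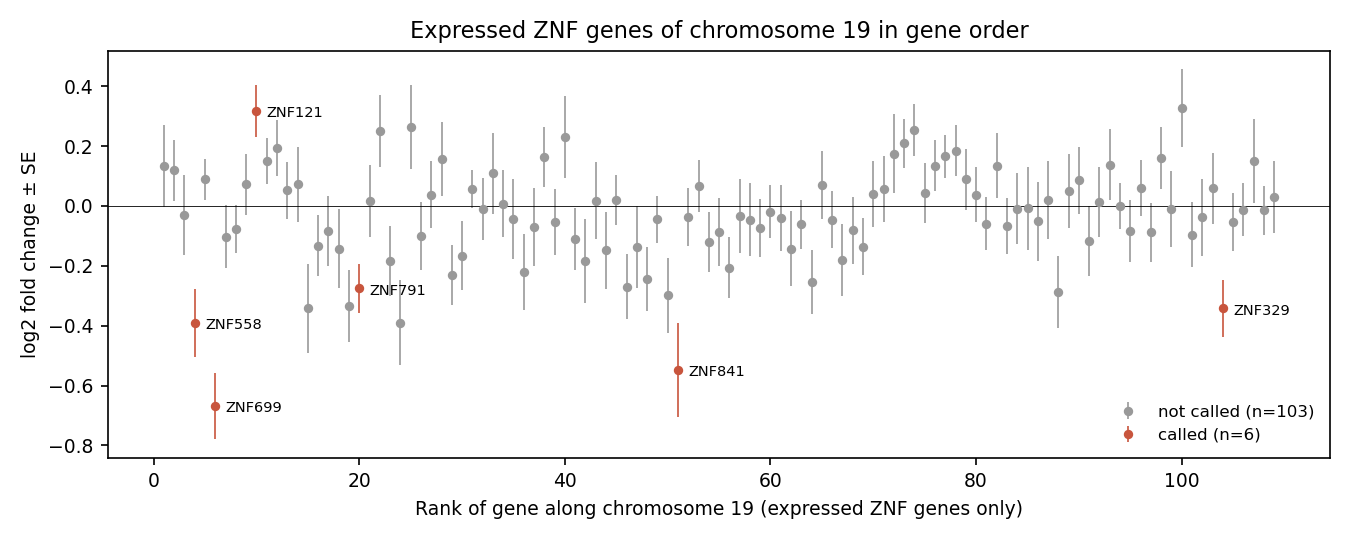
Fitted log2 fold change of sh812 against shNC with its standard error (y axis) for the 109 expressed ZNF genes of chromosome 19 in the order of their start positions (x axis, rank). The 6 called genes are in red, and ZNF558 at -0.39, ZNF699 at -0.67 and ZNF121 at 0.32 stand at ranks 4, 6 and 10.

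The highest levels were reached by few members. The median member had a mean of 21.3 CPM by the library total and the upper quartile was 36.0 CPM. The highest mean was that of ZNF185, which encodes a LIM-domain protein of the actin cytoskeleton and holds no C2H2 pattern. ZNF185 was at 1415 and 1434 CPM in shNC and 1452 and 1482 CPM in sh812, with a log2 fold change of 0.04 (edgeR adjusted p = 0.693). ZNF664 was at 325 and 309 CPM in shNC and 281 and 284 CPM in sh812, apart between the groups, with a log2 fold change of -0.17 (edgeR adjusted p = 0.0633). Its exons overlap those of RFLNA and CCDC92.

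ZNF503, a transcriptional repressor active in development, ZNF146, made almost only of fingers, and ZNF496, which binds the histone methyltransferase NSD1, followed in mean level. Their log2 fold changes were -0.02, 0.06 and -0.01. Per kilobase of transcript the order was ZNF185 at 327, ZNF207 at 59.3, ZNF664 at 58.7 and ZNF503 at 43.5 CPM per kilobase. The members ZNF841 and ZNF138 were nearest above the threshold, both with a mean of 10.1 CPM, and the genes ZNF658 at 9.96 CPM and ZNF830 at 9.97 CPM were nearest below it.

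As a group, the members lay slightly lower in sh812. The median log2 fold change was -0.04, with 99 members above 0 and 146 below, and it was 0.01 without shNC replicate 1. The median was 0.01 over the other coding genes of that minimum and -0.08 over 54 genes of other zinc finger families. With the length trend removed, the medians were -0.01 for the members, 0.01 for the other coding genes and -0.04 for the 54 genes. The members took 0.945% and 0.898% of all counts in shNC and 0.871% and 0.885% in sh812. These shares did not overlap, but the first shNC library was the one that stood off. The median deviation of the members from their own mean over the libraries was 0.05 in shNC replicate 1, -0.02 in shNC replicate 2, -0.02 in sh812 replicate 1 and -0.01 in sh812 replicate 2.

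Within shNC, the median log2 ratio of replicate 2 to replicate 1 over the members was -0.07, with 156 of 245 members lower. That ratio was larger in size than the median between the groups. Within sh812 it was 0.02, with 103 lower. The other coding genes had 0.01 and -0.01 in the same ratios. Set against each other by replicate number, sh812 minus shNC gave a median of -0.07 for the first libraries and 0.00 for the second ones, with 157 and 123 members lower. Of all members, 91 were lower and 56 higher in both.

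The members that moved most between replicates were ZNF841 in shNC, with a log2 ratio of -0.56, and ZNF469 in sh812, with 0.42. ZNF469, a collagen-fibril related gene mutated in brittle cornea syndrome, was at 20.2 and 19.4 CPM in shNC and 17.7 and 23.6 CPM in sh812, so that the sh812 libraries lay on both sides of the shNC ones.

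**Figure D4:**
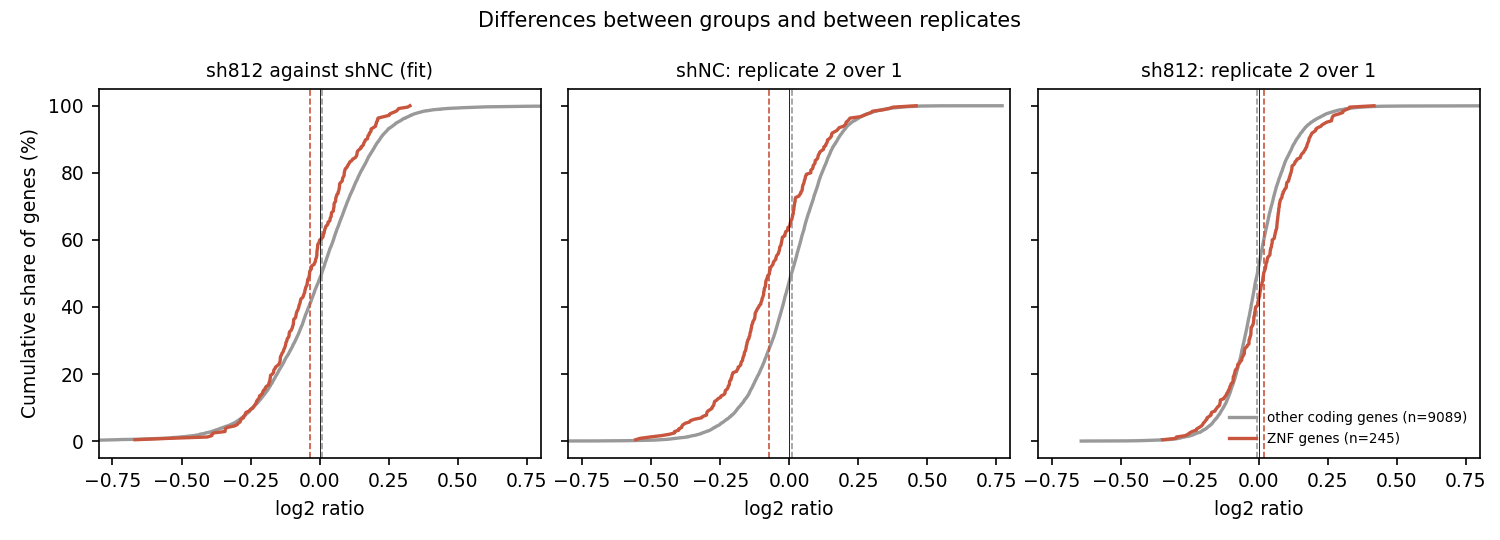
Cumulative percentage of genes (y axis) by log2 ratio (x axis) for 245 ZNF genes (red) and 9089 other coding genes (grey), between the groups (left), between the 2 shNC libraries (middle) and between the 2 sh812 libraries (right). Dashed lines are medians. The red curve is shifted to lower values by -0.04 at the median between groups and by -0.07 between the shNC libraries.

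Transcript length moved with the values. The median transcript was 3898 bases in members and 3255 bases in the other coding genes, with a 3' untranslated region of 1455 against 1090 bases and a GC content of 44.1% against 48.4%. Members under 2000 bases had a median log2 fold change of 0.07, those of 2000 to 4000 bases 0.01, those of 4000 to 6000 bases -0.08 and those of 6000 bases or more -0.10. The other coding genes gave 0.10, 0.02, -0.05 and -0.08 in the same bands. Spearman's rho between log2 fold change and length was -0.31 across the 245 members and -0.38 across 9088 other genes, which share the same 4 libraries. Across the shNC pair, replicate 2 over replicate 1, it was -0.15 and -0.42, and across the sh812 pair 0.06 and 0.05.

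With the length trend of each library removed, the median of the members was -0.01, with 119 above 0 and 126 below. Then 4 members were higher and 4 lower (3.27%), beside 9.92% of all genes and 15.0% of coding genes of the same minimum. By direction these were 4.91% higher and 5.01% lower over all genes, and 7.86% and 7.09% over the coding genes. Of the 12 genes called before, 6 passed again: ZNF699, ZNF841, ZNF329, ZNF770, ZNF121 and ZNF706. ZNF865, with 20 fingers, and ZNF687 passed in this fit with log2 fold changes of 0.29 (edgeR adjusted p = 0.024) and 0.26 (edgeR adjusted p = 0.029). Whether length enters through the RNA, the library preparation or the cells was not tested.

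**Figure D5:**
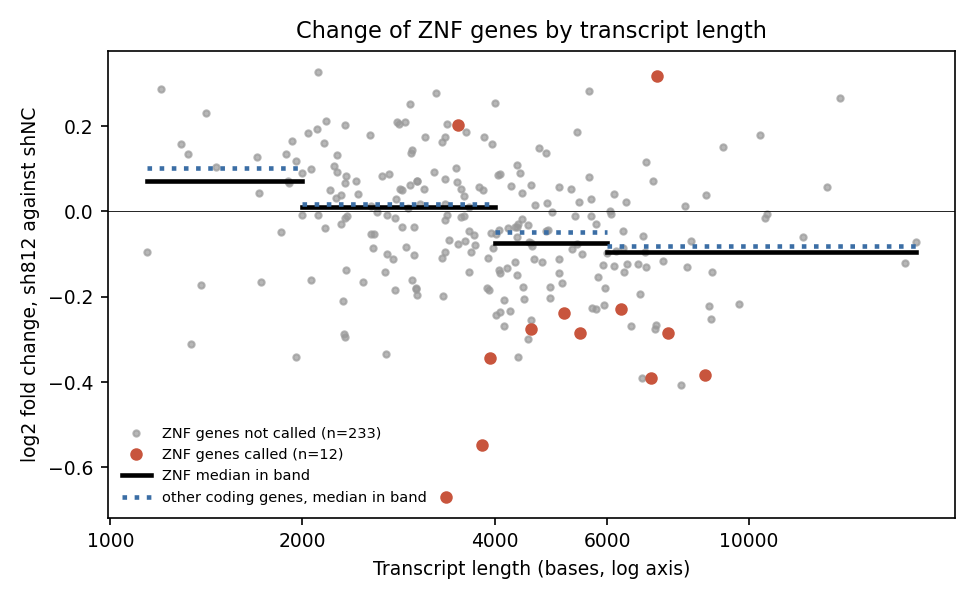
Log2 fold change of sh812 against shNC (y axis) by transcript length (x axis, log scale) for 245 ZNF genes, with the 12 called genes in red, the median of ZNF genes in each length band in black and that of other coding genes dotted in blue. Both sets of medians step down from short to long transcripts, from 0.07 to -0.10 in ZNF genes.

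The core of the N6-methyladenosine motif, GGACT on the sense strand of the transcript, occurred in 228 of 245 members (93.1%) and in 91.6% of the other coding genes. Its median density was 0.740 per kilobase in members and 0.929 in the others. No methylation was measured in these libraries, so the match is a description of the letters only.

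Reads of near-identical copies can be split or dropped when genes are counted. Exact windows of 150 bases that are shared with a transcript of another gene were absent in 202 members, the 12 called genes among them, and present in 43. Copies that differ by a base were not counted, and a single transcript was read per member. More than 10% of windows were shared in 14 members, up to 100% in ZNF365, so the values of those 14 are uncertain. ZNF587B, with the highest fitted value (15.4% shared), and ZNF207 (15.0% shared) are among them. In 116 members some exonic bases overlap another gene, where reads could be assigned to either. Called genes are among them, such as ZNF841 with ZNF432 and ZNF248 with AL132657.1, each on the same strand.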

How the data were processed

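Total RNA from PC3 cells was poly(A) selected and sequenced as strand-marked libraries, per the labels' protocols. The deposited table holds raw counts per gene for 2 shNC and 2 sh812 libraries. The authors used fastp, STAR 2.7.1a, featureCounts, DESeq2 and hg38, per the submitters' processing notes, which give no strand setting for counting. From the counts, edgeR 4.0.16 in R 4.3.3 was run on all 16802 genes that passed its filter on low counts, with TMM scaling, a quasi-likelihood test of sh812 against shNC and Benjamini-Hochberg adjustment over all genes tested. Genes are called at an adjusted p under 0.05. Ratios between single libraries used a prior count of 2. The length trend was a lowess curve (span 0.3) fitted per library. A log2 fold change of 0 means no difference, and 1 count was worth 0.0270 to 0.0318 CPM.

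Named genes are METTL3, all members called, the 5 with the highest mean CPM, the one with the largest ratio in each replicate pair, those beside the threshold and genes of the role lists. The members and the lists were chosen with earlier results of these data known. Gene models came from GENCODE 29 (GRCh38). Replicates differed by more than counting noise, with a mean chi-square per member of 7.72 in shNC and 3.18 in sh812 (1 expected). The analysis was tested on simulated data. Some marker genes and a sequence pattern are not reported here.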

Additional observations from a re-analysis of the deposited data

How the results depend on the processing

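The alternatives were other scalings, filters, tools and member thresholds, the replicate number as a block, a length correction and leaving out each library. With library size alone, 1 member was called higher and 17 lower, 7.35% of members beside 11.2% of all genes tested. The median log2 fold change was then -0.082, with all genes tested at -0.05 and 29.7% of calls higher, against 50.1% before. The counts were 4 and 4 with the length trend removed (3.27% beside 9.92%), and 4 and 5 with that and the replicate block (3.67% beside 10.1%). DESeq2 gave 2 higher and 6 lower (3.27% beside 8.86%). A threshold of 20 CPM gave 2 and 6 among 135 members, beside 10.8% of all genes tested. The replicate block alone gave 3 and 11 (5.71% beside 11.9%), with a median of -0.03 and METTL3 at -2.42. Deviations of same-numbered libraries correlated at 0.04 over all genes, so the numbers were not taken to pair the samples. KRAB partner genes were 1 higher and 2 lower with library size alone, and 2 lower with a filter at 1 CPM. Leaving out one library gave 0 to 10 members higher and 1 to 34 lower, with a median of -0.043 to 0.0054 (above 0 only without shNC replicate 1), and 0 to 6 partners higher and 0 to 3 lower. Counts were 3 and 5 without shNC replicate 1, 10 and 34 without shNC replicate 2 (18% of members beside 18.1% of all genes), 2 and 1 without sh812 replicate 1 and 0 and 1 without sh812 replicate 2. A lone library was then assumed to vary like the other group. METTL3 stayed between -2.52 and -2.33. Some uncalled genes changed sign: ZNF185 with library size alone (-0.0024) and ZNF496 with the length trend removed (0.058, and 0.059 with the block). When one library was left out, ZNF503 ran from -0.13 to 0.099, ZNF146 from -0.010 to 0.14, ZNF496 from -0.053 to 0.039, ZNF469 from -0.17 to 0.25 and ZNF830 from -0.068 to 0.51. The cause was not tested. With 2 libraries a group, small differences of genes near 10 CPM were not detectable: their median standard error was 0.124 on the log2 scale.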

Other observations

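A run of 7 neighbouring members on the long arm of chromosome 19, picked after its values were seen, had log2 fold changes above 0 throughout. It reaches from ZNF628 to ZNF444 (chromosome 19, 55476332 to 56160893, GRCh38) and also holds ZNF579, ZNF865, ZNF580, ZNF581 and ZNF787. The values ran from 0.04 in ZNF580 to 0.25 in ZNF865, and none passed the edgeR test. In 6 of the 7 genes both sh812 libraries lay on one side of both shNC libraries. That also held for 53.6% of all genes tested and 61.2% of coding genes of at least 10 CPM. Since the run was picked after its values were seen, this count gives it no support. The KRAB pattern was found in none of them, their median transcript was 2042 bases long and their median GC content was 68.6%, against 44.1% over all members. With the length trend removed 6 of 7 were above 0, and ZNF865 passed. In shNC, replicate 2 was higher than replicate 1 in 6 of the 7, so these genes moved within the control group as well. ZNF580 and ZNF581 share exonic bases on the same strand.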
